A study of Rattus norvegicus with 13 samples.

Results

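The comparison described here is that of irradiated rat kidneys with and without lisinopril. It takes 9 of the 13 small RNA libraries of the series, 4 from irradiated rats that received no drug and 5 from irradiated rats that received it, and 460 rat mature miRNAs of the 1121 features in the count table. All animals were female WAG/RijCmcr rats, an inbred Wistar strain, 11 to 12 weeks old and about 155 g in weight. Rats of both compared groups were given 13 Gy of X-rays while awake (320 kVp, 1.75 Gy per minute), with 1 hind limb held outside the field and shielded ("13 Gy leg-out PBI", partial-body irradiation), which leaves some bone marrow unexposed. As supportive care they received saline under the skin (40 ml per kg per day, days 3 to 7) and the antibiotic enrofloxacin (10 mg per kg per day) up to day 14. The lisinopril group also had the drug in its drinking water, about 24 mg per square metre of body surface per day, from day 7 until the kidneys were taken on day 35. Control libraries (n = 4) came from age-matched rats that were not irradiated and whose labels list no medication, which leaves unclear whether they had the supportive care. They entered the fit to steady the estimate of spread and are given as reference levels. No group received lisinopril without irradiation, so the drug is seen here only on top of radiation.

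Lisinopril blocks angiotensin converting enzyme, which makes the vasoconstrictor angiotensin II, and drugs of this class slow the kidney failure that follows irradiation in rats. A miRNA is a short RNA that guides Argonaute proteins to messenger RNAs, and its bases 2 to 8, the seed, do most of the target pairing. Each hairpin precursor can give a mature miRNA from its 5p and from its 3p arm. Neighbouring hairpins on a chromosome are often cut from a shared transcript.

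Counts of rat mature miRNAs came to between 4885082 and 6786492 in the irradiated libraries and between 5762180 and 11095939 in the lisinopril libraries, and 4 of the 5 lisinopril libraries were deeper than every irradiated one. The level that 3 counts stand for lay between 0.291 and 0.561 CPM (read counts scaled to library size, after TMM scaling) in these 9 libraries. It was 3.19 CPM in control library 2, the shallowest with 1194175 counts, so low levels in that library are poorly measured. Such floors cover counting error only. Kidney-enriched miRNAs were abundant in every library, with miR-10a-5p, a miRNA of the HoxB gene cluster, holding 28.9% to 37.7% of rat miRNA counts in the 9. Of the 460 miRNAs, 419 passed the filter on low counts and 41 did not.

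The libraries did not sort cleanly by group. Of the 9, 5 had their closest library, by correlation of log2 CPM, within their own group. Irradiated libraries 1, 3 and 4 were each closest to a lisinopril library, at r = 0.992, 0.991 and 0.995. Within its own group library 4 correlated at r = 0.979 to 0.989, about as library 2 did (0.979 to 0.990). With control libraries 1 to 4, library 4 correlated at r = 0.991, 0.969, 0.991 and 0.987. Irradiated library 1 reached r = 0.992 with control library 3. Library 4 was nearer to the lisinopril mean than to the mean of the other irradiated libraries for 322 of 429 miRNAs (75.1%), whereas libraries 1, 2 and 3 were so for 204 (47.6%), 156 (36.4%) and 137 (31.9%). Libraries also differed in a trend on base composition. The log2 deviation of a miRNA per 10 percentage points of G and C in its sequence was 0.03, 0.36, 0.20 and -0.14 in irradiated libraries 1 to 4, and between -0.10 and 0.04 in the 5 lisinopril libraries. Irradiated libraries 2 and 3 thus held relatively more GC-rich miRNAs, and irradiated library 4 fewer. The comparison was run with all libraries and without irradiated library 4. Leaving out that library was part of the plan, made with earlier results of these data known, and does not follow from these values. Because of the trend on base composition, the comparison was also run with an adjustment for GC content where the sequence was known. Not every miRNA below is printed with all of these values.

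The mature sequences on which the results turn are printed here 5′ to 3′ from RefSeq (GRCr8), with the seed, bases 2 to 8, in capitals. Of the 460 names, 415 matched a sequence and 45 did not. The first set is the miR-183 cluster on chromosome 4, where the lowest p-values of the comparison lay. miR-183-5p and miR-3553 are annotated on opposite strands over the same 22 bases. Whether counting used strand is not known here, and miR-183-5p had 1.18 to 1.26 times the counts of miR-3553 in all 13 libraries, so the 2 are read as one uncertain signal. Both were still tested singly, so counts of calls hold the locus 2 times where both passed. Both also entered the adjustment of p-values, which can lower the adjusted p-values they share. The sequences of this set are:
miR-183-5p: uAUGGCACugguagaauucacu
miR-3553: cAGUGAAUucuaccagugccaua
miR-183-3p: uGAAUUACcgaagggccauaa
miR-96-5p: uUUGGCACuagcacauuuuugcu
miR-182: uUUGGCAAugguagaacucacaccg
The seeds of miR-183-5p, miR-96-5p and miR-182 differ from one another, so they are separate seed families although their hairpins are neighbours.

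The second set holds miR-322-5p and miR-127-3p, the higher miRNAs with the smallest p after adjustment for GC content, with miR-16-5p and miR-195-5p, which carry the same seed as miR-322-5p but come from other loci:
miR-322-5p: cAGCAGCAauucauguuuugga
miR-16-5p: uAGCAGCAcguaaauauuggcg
miR-195-5p: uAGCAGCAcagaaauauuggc
miR-127-3p: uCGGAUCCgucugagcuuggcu

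The third set is the pair of abundant miR-34 family members, of which miR-34a is named in the title of the series:
miR-34a-5p: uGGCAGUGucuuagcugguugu
miR-34c-5p: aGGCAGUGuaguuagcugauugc

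The fourth set shows the contrast in base composition among miRNAs that differed without irradiated library 4. Of these, miR-9a-5p, miR-126a-5p and miR-542-3p were higher with the drug and hold 34.8%, 38.1% and 31.8% G and C. By contrast, miR-149-5p, miR-532-3p and miR-324-3p were lower and hold 60.9%, 63.6% and 72.7%:
miR-9a-5p: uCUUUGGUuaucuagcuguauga
miR-126a-5p: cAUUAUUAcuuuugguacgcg
miR-542-3p: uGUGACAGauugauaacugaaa
miR-149-5p: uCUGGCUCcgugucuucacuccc
miR-532-3p: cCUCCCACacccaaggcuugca
miR-324-3p: cCACUGCCccaggugcugcugg

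With all libraries, no miRNA passed between the kidneys of treated and untreated irradiated rats. The quasi-likelihood test of edgeR (Benjamini-Hochberg adjustment over all tested) called 0 of 419 higher (0%) and 0 lower (0%), with 63 at an unadjusted p under 0.05. Other tools called more, DESeq2 with 4 higher and 7 lower and limma-voom with 0 and 2, or with 16 and 17 once libraries were weighted by their quality. The miRNAs nearest the threshold were miR-183-5p and its opposite-strand partner miR-3553, which were lower with the drug, and miR-322-5p, miR-30d-3p and miR-127-3p, which were higher. The groups did not overlap for 9 miRNAs that lay above (2.15% of 419) and 9 that lay below (2.15%). Among the 18 were miR-183-5p, miR-322-5p, miR-450a-5p and miR-199a-5p. Over all 419 miRNAs the median log2 fold change was -0.02. It shifted to -0.21 where libraries were scaled by their totals and to -0.11 by totals without miR-10a-5p, the most abundant miRNA, so the sign of small values depends on the scaling.

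The miR-183 cluster (miR-183, miR-96 and miR-182) is best known from sensory cells and is also made in other epithelia. miR-183-5p was at 318, 331, 313 and 326 CPM in irradiated libraries 1 to 4, and at 228, 207, 200, 248 and 244 CPM in lisinopril libraries 1 to 5. Every kidney with the drug was below every kidney without it, and irradiated library 4 lay within its own group. Controls were at 418 to 525 CPM, so the order of levels was control, irradiated, lisinopril, with no overlap between neighbours. The log2 fold change between the drug groups was -0.51 (SE 0.106, adjusted p = 0.0504), and -0.53 (adjusted p = 0.0278) without irradiated library 4, where miR-183-5p fell. It passed under 11 of 21 alternative settings, with adjusted p-values over all 21 from 3.96e-05 to 0.232. The highest came without lisinopril library 3.

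The other members of the cluster were less separated. miR-183-3p, the rarer arm, was at 7.29, 7.57, 5.02 and 3.37 CPM in irradiated libraries and at 4.25, 2.61, 2.58, 2.52 and 2.55 CPM with the drug. Lisinopril library 1 was the only treated kidney above irradiated library 4. Its log2 fold change was -1.02 (adjusted p = 0.0931) with all libraries, and it fell by 1.23 on the log2 scale (adjusted p = 0.0161) without irradiated library 4. For miR-182, the most abundant member, irradiated libraries were at 5199, 5196, 4706 and 6399 CPM and lisinopril libraries at 4531, 3185, 3650, 4180 and 5849 CPM. The groups overlapped, and the log2 fold change was -0.33 (adjusted p = 0.325). For miR-96-5p the values were 16.6, 15.1, 18.6 and 23.9 CPM against 16.4, 14.5, 12.9, 15.2 and 16.5 CPM (log2 fold change -0.30, adjusted p = 0.417). The log2 fold change was negative for all 4 measured miRNAs of the cluster (median -0.42, against -0.02 over all miRNAs), and 0 of the 4 passed with all libraries.

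**Figure D1:**
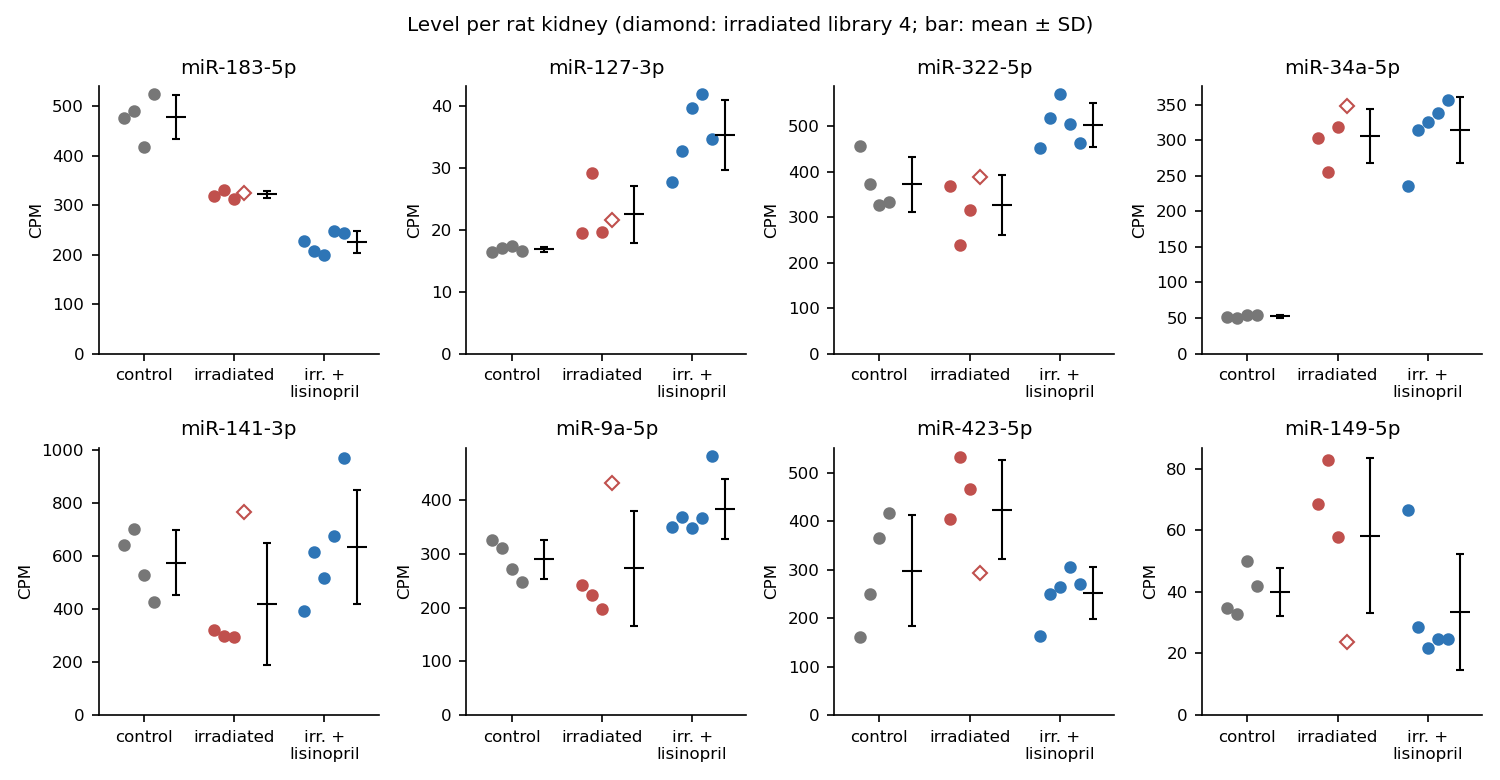
Level in CPM (vertical axes, starting at 0) of 8 miRNAs per kidney (points; bars give mean ± SD of the group), with 4 control, 4 irradiated and 5 lisinopril rats; open diamonds mark irradiated library 4. In the upper row the diamond sits with its own group for miR-183-5p and miR-127-3p, while in the lower row it lies among or beyond the lisinopril libraries for miR-141-3p, miR-9a-5p and miR-149-5p.

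miR-322 and its neighbours miR-503, miR-351, miR-450a and miR-542 lie together on chromosome X, and miR-322-5p belongs by its seed to the miR-15/16 family, which targets cyclins and other cell cycle messengers. miR-322-5p was at 368, 240, 316 and 388 CPM in irradiated libraries and at 453, 519, 572, 506 and 463 CPM with lisinopril. No treated kidney fell into the range of the untreated ones, while controls, at 328 to 458 CPM, overlapped both. The difference came to 0.62 on the log2 scale (SE 0.151, adjusted p = 0.0931), and miR-322-5p rose by 0.69 (adjusted p = 0.0278) without irradiated library 4.

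Its neighbour miR-450a-5p was at 594, 344, 499 and 584 CPM without the drug and at 680, 824, 934, 743 and 738 CPM with it, again without overlap. It did not pass with all libraries (log2 fold change 0.63, adjusted p = 0.128) but rose by 0.70 (adjusted p = 0.0386) without irradiated library 4. miR-542-3p was at 69.5, 39.7, 61.0 and 106 CPM against 68.8, 106, 141, 116 and 137 CPM, and passed without irradiated library 4 (0.99, adjusted p = 0.0386). Of the 10 listed miRNAs of the cluster, 8 were tested, 7 had a positive log2 fold change and the median was 0.34 (0.16 under library totals, 6 positive). Without irradiated library 4, 3 of 9 tested rose, against 20 of 429 miRNAs overall (4.66%). The most abundant member, miR-351-5p, was at 956 to 1928 CPM without the drug and 1317 to 1698 CPM with it (log2 fold change 0.05, adjusted p = 0.905).

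miR-127-3p comes from the imprinted Dlk1-Dio3 locus on chromosome 6, where it is transcribed opposite to the retrotransposon-derived gene Rtl1. Its level was 19.4, 29.2, 19.7 and 21.6 CPM in irradiated libraries and 27.6, 32.7, 39.6, 41.9 and 34.7 CPM with the drug, against 16.4 to 17.4 CPM in controls. Only irradiated library 2 reached into the treated range. With all libraries the difference came to 0.65 on the log2 scale (SE 0.163, adjusted p = 0.0931), and without irradiated library 4 to 0.60 (adjusted p = 0.0514). Most of the locus went the other way. Of its 31 tested miRNAs, 24 were on the negative side (median log2 fold change -0.17) and 0 passed with all libraries. Without irradiated library 4, miR-409b, miR-494-3p and miR-541-5p fell and miR-431 rose among 33 tested (6.29% and 4.66% of all miRNAs fell and rose). miR-541-5p, for example, was at 105, 94.3, 124 and 82.2 CPM without the drug and 80.0, 65.5, 78.9, 79.6 and 74.8 CPM with it. Groups did not overlap for it, and irradiated library 4 was the lowest of the untreated kidneys. miR-431 never passed 1.36 CPM in any of the 9 libraries and was below the level of 3 counts in irradiated libraries 1 to 3, so its log2 fold change rests on very few reads.

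The miR-34 family is switched on by p53 after DNA damage. miR-34a-5p was at 303, 256, 318 and 348 CPM in irradiated kidneys and at 236, 314, 326, 339 and 356 CPM in kidneys with lisinopril. The treated range enclosed the untreated one, and both lay far above the controls, which were at 54.4 CPM at most. Its log2 fold change with the drug was 0.04, with a 95% interval from -0.24 to 0.32 (edgeR adjusted p = 0.92), and 0.09 (adjusted p = 0.693) without irradiated library 4. An exact permutation test (two-sided, on log2 CPM) gave p = 0.8095 (n = 4 and 5, smallest possible 0.01587), and p = 0.5357 without that library (n = 3 and 5, smallest possible 0.03571). For miR-34c-5p the values were 311, 240, 323 and 319 CPM without the drug and 293, 279, 250, 263 and 249 CPM with it (log2 fold change -0.16, adjusted p = 0.513). Summed over the shared seed GGCAGUG (miR-34a-5p, miR-34b-5p, miR-34c-5p and miR-449a-5p), the level was 636 ± 66.8 CPM (SD, n = 4) without and 620 ± 36.3 CPM (SD, n = 5) with the drug. The log2 fold change of that sum was -0.04, with a 95% interval from -0.25 to 0.18.

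Without irradiated library 4 the same test called 20 of 429 miRNAs higher (4.66%) and 27 lower (6.29%), with 120 at an unadjusted p under 0.05, and DESeq2 called 30 and 35. Scaling by library totals moved the split to 8 higher and 45 lower. Groups then did not overlap for 42 miRNAs above (9.79%) and 37 below (8.62%). Of the 47 called, 38 had a mean of at least 10 CPM and 2, miR-431 and miR-331-5p, had not been tested with all libraries. Counting opposite-strand partners once left 43 loci. This set also depended on other libraries. With irradiated library 3 left out as well, 1 was called higher and 1 lower, and with irradiated library 2 left out as well, 4 and 0. Leaving out lisinopril library 2 or 4 as well gave 3 and 0, lisinopril library 3 gave 6 and 1, lisinopril library 5 gave 6 and 3, and lisinopril library 1 gave 31 and 47.

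**Figure D2:**
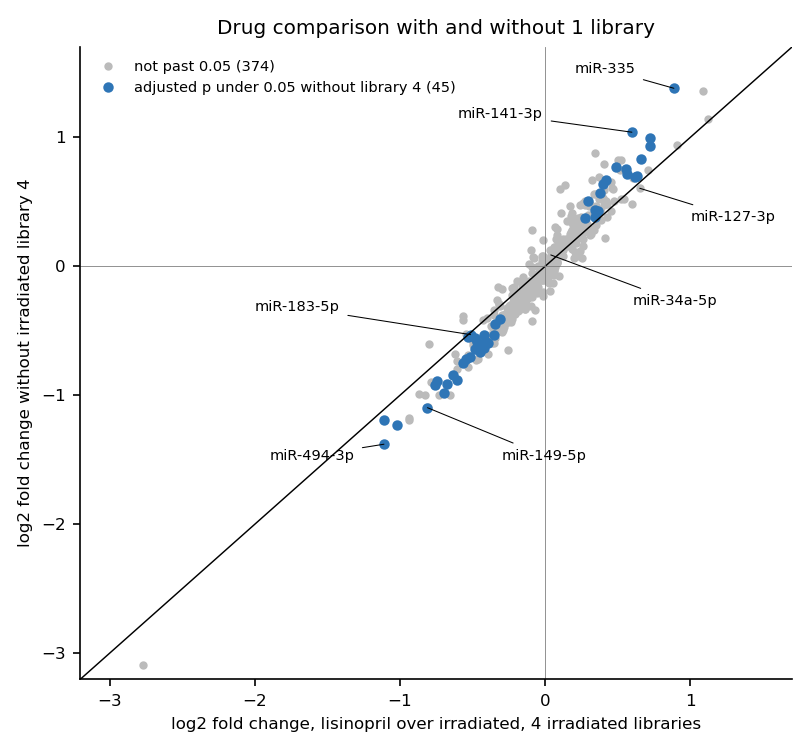
Log2 fold change of lisinopril over irradiated for the 419 miRNAs tested in both fits, with all 4 irradiated libraries (horizontal) and without irradiated library 4 (vertical); the line marks equal values and blue points are the 45 with an adjusted p under 0.05 without that library. Most blue points lie farther from 0 vertically than horizontally, among them miR-335, miR-141-3p and miR-149-5p, whereas miR-183-5p sits on the line and miR-127-3p just below it.

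The miRNAs that rose without irradiated library 4 are described singly here, since the lists they belong to were mixed. In that fit the miR-200 list had 1 of 8 called and 5 of 8 negative (median log2 fold change -0.10), and the endothelial list 1 of 6 called and 3 of 6 negative (median -0.13), against a median of -0.07 over all miRNAs. miR-141-3p of the miR-200 family, which maintains the epithelial state by repressing Zeb factors, was at 320, 299 and 293 CPM in irradiated libraries 1 to 3 and at 767 CPM in library 4. With the drug it was at 393, 616, 519, 676 and 972 CPM, so library 4 lay inside the treated range and the other 3 below it. Without library 4 it rose by 1.04 on the log2 scale (SE 0.240, adjusted p = 0.0321), against a difference of 0.60 (adjusted p = 0.353) with it. miR-335, hosted by the imprinted gene Mest, was at 16.1, 22.3, 13.5 and 48.0 CPM against 42.2, 30.6, 45.5, 44.1 and 68.3 CPM, with controls at 38.0 to 67.2 CPM. It rose by 1.38 (adjusted p = 0.0161) without library 4, and with that library the value was 0.89 (adjusted p = 0.248).

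miR-9a-5p, which targets Nfkb1, was at 242, 224, 197 and 432 CPM without the drug and at 350, 368, 348, 367 and 483 CPM with it, with library 4 again inside the treated range (0.77, adjusted p = 0.0161 without it). The endothelial miR-126a-5p, from an intron of Egfl7, was at 6361, 5443, 6468 and 10024 CPM against 6998, 11637, 11292, 10457 and 11709 CPM (0.76, adjusted p = 0.0266 without it). Its partner arm miR-126a-3p was at 0.04 (adjusted p = 0.821) in the same fit, but the ratio of the arms did not pass (log2 difference 0.69, limma adjusted p = 0.0816). miR-145-3p, of a smooth muscle hairpin, went from 52.3, 42.1, 48.3 and 71.4 CPM to 60.8, 76.4, 76.1, 91.8 and 89.8 CPM (0.72, adjusted p = 0.0346 without library 4). Its 5p arm, the more abundant, was at -0.33 (adjusted p = 0.326). miR-199a-5p and miR-199a-3p, known from fibroblasts and stellate cells, rose by 0.39 and 0.38 (adjusted p = 0.0386 for each). For miR-199a-5p, library 4 was below all treated kidneys, at 343, 330, 357 and 400 CPM against 413, 466, 418, 508 and 466 CPM. miR-21-5p, raised in many forms of kidney injury, was at 10569, 6654, 9292 and 16087 CPM without the drug and 11329 to 17310 CPM with it (0.67, adjusted p = 0.041 without library 4, and 0.42, adjusted p = 0.397, with it). miR-196a-5p, from the Hox clusters and enriched in kidney, was at 304, 269, 274 and 352 CPM against 323 to 427 CPM (0.43, adjusted p = 0.0386 without library 4).

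The miRNAs that fell without irradiated library 4 included both arms of miR-423. miR-423-5p was at 404, 534, 468 and 293 CPM without the drug and 162, 251, 265, 306 and 272 CPM with it (-0.92, adjusted p = 0.0386 without library 4, and -0.76, adjusted p = 0.22, with it). miR-149-5p was at 68.6, 82.9 and 57.9 CPM in irradiated libraries 1 to 3 and 23.8 CPM in library 4, and lisinopril library 1, at 66.7 CPM, stood apart from the 21.9 to 28.7 CPM of the other treated kidneys. It fell by 1.1 (adjusted p = 0.0386) without library 4. miR-532-3p was at 19.4, 27.4, 24.0 and 16 CPM against 14.4, 14.7, 10.5, 13.4 and 11.8 CPM, without overlap also when library 4 was kept (-0.75, adjusted p = 0.16, and -0.89, adjusted p = 0.0346, without it). miR-378a-5p, from an intron of the metabolic coactivator gene Ppargc1b, fell by 0.72 (adjusted p = 0.0346). The features miR-3557-3p and miR-3557-5p are annotated opposite to the arms of miR-378a and followed them (-0.75 and -0.45), so their counts are uncertain. miR-128-3p, best known from neurons, was at 146, 122, 151 and 89.6 CPM against 115, 88.9, 83.5, 89.3 and 77.2 CPM and fell by 0.64 (adjusted p = 0.0346). miR-324-3p fell by 0.66 (adjusted p = 0.0386), from 52.2, 74.2 and 52.7 CPM in libraries 1 to 3 to between 34.5 and 46.9 CPM, with library 4 at 30.8 CPM.

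Irradiated library 4 was nearer to the lisinopril mean than to the mean of irradiated libraries 1 to 3 for 41 of the 47 miRNAs called without it (87.2%), against the 75.1% of all tested miRNAs given above. The other 6 were miR-183-5p, miR-3553, miR-322-5p, miR-450a-5p, miR-184 and miR-664-2-5p. For 31 of the 47 (66.0%) its value lay inside the range of the 5 treated kidneys, a share close to the 292 of 429 tested (68.1%). For 4 of the 47 (8.51%) it lay inside the range of irradiated libraries 1 to 3, against 149 of 429 tested (34.7%). These 4 were miR-183-5p, miR-3553, miR-450a-5p and miR-184. Irradiated library 2 lay inside the range of the other irradiated libraries for 128 of 429 tested (29.8%) and 13 of the 47 (27.7%). Groups did not overlap for 38 of the 47 without library 4 (79 of 429 tested, 18.4%) and for 9 of the 47 with it (19 of 429, 4.43%). The 47 were chosen by the fit without that library, so these counts are a description of the choice.

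**Figure D3:**
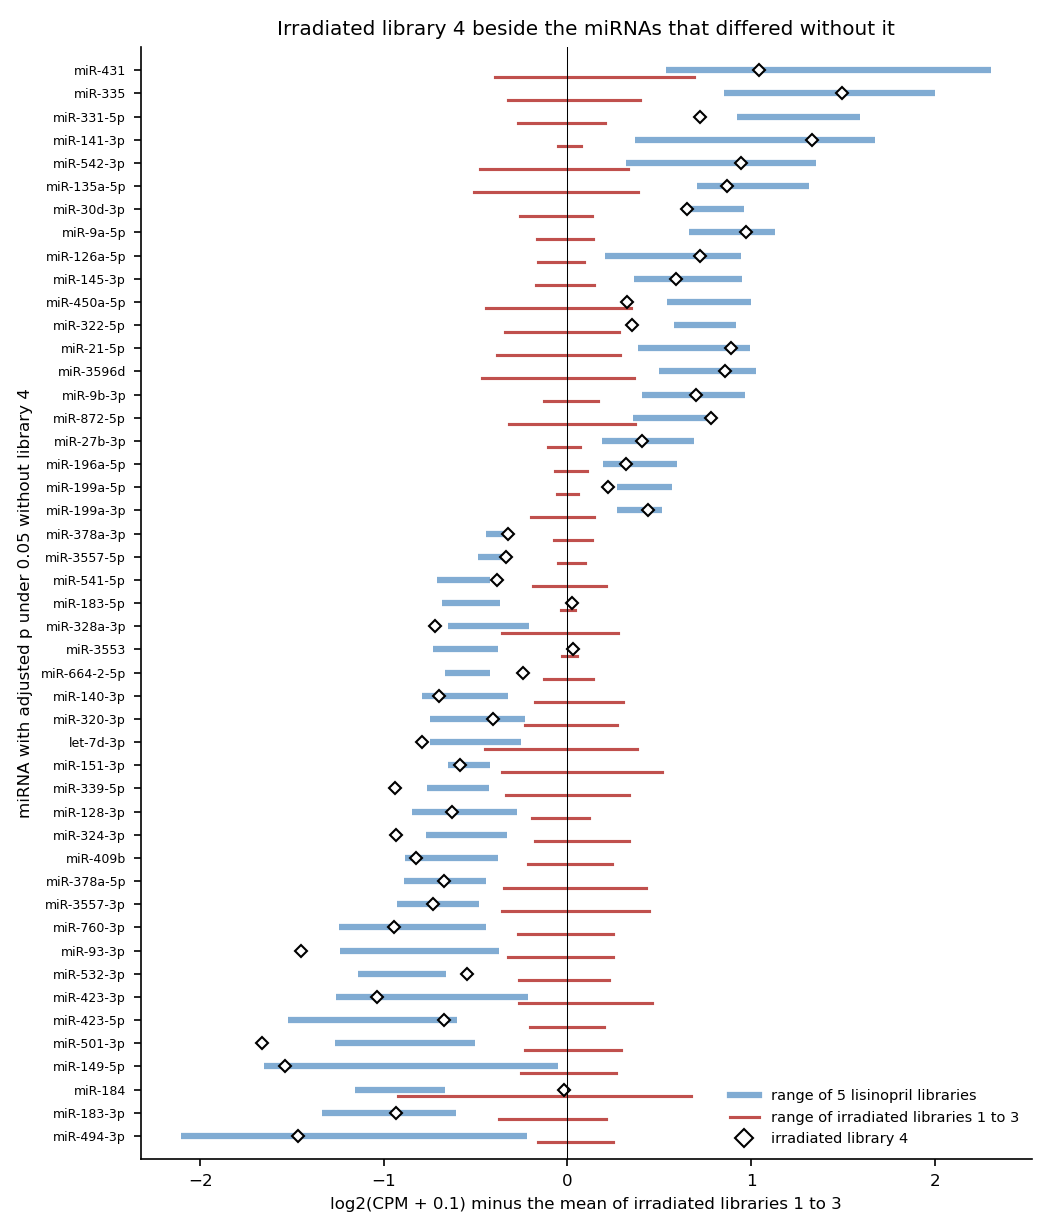
For each of the 47 miRNAs called without irradiated library 4 (rows), log2(CPM + 0.1) relative to the mean of irradiated libraries 1 to 3 (horizontal axis): the range of the 5 lisinopril libraries (blue), the range of irradiated libraries 1 to 3 (red) and irradiated library 4 (diamond). Diamonds fall inside the blue range in 31 rows (66.0%, against 68.1% of all tested miRNAs). They fall inside the red range in 4 rows (8.51%, against 34.7%), those of miR-183-5p, miR-3553, miR-450a-5p and miR-184.

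Base composition moved with the differences. Across 386 miRNAs the log2 fold change without irradiated library 4 correlated with GC content at Pearson r = -0.47 and Spearman rho = -0.54, and across 377 miRNAs with all libraries at r = -0.41 and rho = -0.47. These are correlations across miRNAs, which share their libraries and are not replicates. Of the called higher miRNAs with a known sequence, 16 of 18 held under 50% G and C (median 39.5%). Of the lower ones, 6 of 23 did (median 54.5%). Over all 386 tested miRNAs with a sequence the median was 46.7%, so more of them held under 50% than not.

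Each library's trend on GC content was then removed, a step chosen after seeing the data. With this adjustment and all libraries, 378 miRNAs were tested, 2 were higher (0.529%) and 2 lower (0.529%), with 56 at an unadjusted p under 0.05. The higher ones were miR-127-3p (log2 fold change 0.81, adjusted p = 0.010) and miR-322-5p (0.51, adjusted p = 0.0289), and the lower ones the overlapping miR-183-5p (-0.65, adjusted p = 0.00857) and miR-3553 (-0.61, adjusted p = 0.00857). In the smaller table of miRNAs with a sequence but no adjustment, miR-183-5p also passed (-0.53, adjusted p = 0.024). Leaving out each of the 9 libraries in turn, miR-183-5p and miR-3553 stayed past the threshold in 9 of 9 adjusted fits, with adjusted p-values of miR-183-5p from 0.00955 to 0.0332. miR-127-3p passed in 8 of 9 and missed without irradiated library 3 (adjusted p = 0.0646). miR-322-5p passed in 4 of 9, with adjusted p-values up to 0.117, and missed without irradiated library 2 or 3 or lisinopril library 2, 3 or 4.

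Without irradiated library 4 and with the adjustment, 7 of 386 rose (1.81%) and 6 fell (1.55%). Those that rose were miR-127-3p, miR-322-5p, miR-199a-5p, miR-145-3p, miR-126a-5p, miR-141-3p and miR-431. The 6 that fell were miR-183-5p, miR-3553, miR-183-3p, miR-541-5p, miR-10a-3p and miR-128-3p. Of these 13, 11 were among the 47 called without the adjustment, of which 41 had a known sequence. GC-rich miRNAs such as miR-149-5p (-0.83, adjusted p = 0.0971), miR-423-5p (-0.70, adjusted p = 0.102) and miR-324-3p (-0.26, adjusted p = 0.207) no longer passed. Among the GC-poor ones, miR-9a-5p (0.44, adjusted p = 0.0613) and miR-542-3p (0.65, adjusted p = 0.08) no longer passed either. Nor did miR-21-5p (0.39, adjusted p = 0.121), miR-199a-3p (0.22, adjusted p = 0.168) and miR-196a-5p (0.27, adjusted p = 0.181). The same held for miR-450a-5p, miR-532-3p and miR-378a-5p. miR-34a-5p stayed without a call, at 0.10 (adjusted p = 0.798) with all libraries and 0.21 (adjusted p = 0.379) without library 4.

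**Figure D4:**
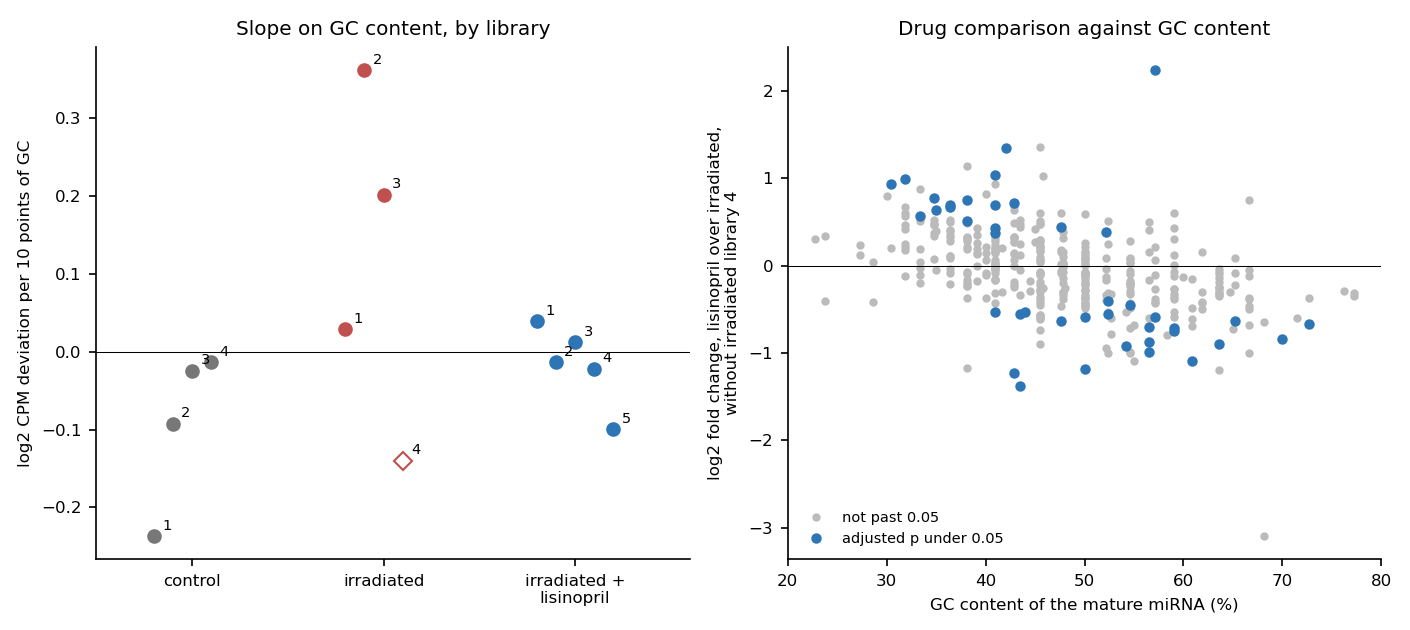
Left: slope of each library's log2 CPM deviation per 10 percentage points of GC content, by group, with replicate numbers. Right: log2 fold change of lisinopril over irradiated without irradiated library 4 against GC content of the mature miRNA, for 386 miRNAs, of which 41 (blue) had an adjusted p under 0.05. Irradiated libraries 2 and 3 have the highest slopes (0.36 and 0.20) and irradiated library 4 the lowest of its group (-0.14); blue points above 0 lie mostly at the left and those below 0 mostly at the right.

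Groups of miRNAs that mark cell types or pathways were described by their counts, without a test of the group. These lists were drawn up with earlier results of these data known. In whole kidney, fewer cells of a type and less miRNA per cell cannot be told apart. None of the listed miRNAs passed with all libraries, and the median log2 fold change of all tested miRNAs was -0.02. Among kidney-enriched miRNAs, 12 of 16 had a positive log2 fold change (median 0.18), but under library totals 8 of 16 did, with a median of -0.0042 that lay 0.21 above that of all miRNAs. miR-192-5p of the renal tubule was at 54674, 34750, 49413 and 67980 CPM against 48849, 66623, 95973, 67700 and 77135 CPM (0.46, adjusted p = 0.291, and 0.61, adjusted p = 0.0594, without library 4). Of the abundant miRNAs, miR-10a-5p gave 0.41 (adjusted p = 0.261), miR-30a-5p, of a family expressed in podocytes and tubules, 0.35 (adjusted p = 0.307), and miR-22-3p -0.30 (adjusted p = 0.274).

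Of the angiotensin-linked miRNAs, which bear on the pathway the drug blocks, 7 of 11 were positive (median 0.18, or 0.01 under library totals), and 2 of 11 rose without irradiated library 4 (miR-21-5p and miR-145-3p, given above), against 4.66% of all miRNAs. miR-132-3p, which angiotensin II is reported to induce in vessels, was at 20.7, 28.04, 19.95 and 23.8 CPM without the drug and 24.9, 24.1, 19.6, 23.8 and 27.6 CPM with it (0.05, adjusted p = 0.922). The miR-132-5p arm did not overlap between groups (at most 1.18 CPM without the drug and at least 1.26 CPM with it), yet at these low levels the log2 fold change of 1.09 did not pass (adjusted p = 0.248). Pro-fibrotic and anti-fibrotic miRNAs had 7 of 12 positive (median 0.11, or -0.05 under library totals), and without library 4 3 of 12 rose, miR-21-5p and both arms of miR-199a, against 4.66% of all miRNAs. The miR-29 family, which restrains collagen genes, had 2 of 6 positive (median -0.04), and its most abundant member miR-29a-3p was at 3371 to 3919 CPM without and 3113 to 3538 CPM with the drug (-0.11, adjusted p = 0.534).

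Among markers of blood cells, the summed red cell list varied widely within both groups. The red cell miRNA miR-451-5p was at 219, 21.0, 2.23 and 73.8 CPM without the drug and at 161, 5.75, 1.55, 69.6 and 142 CPM with it (-0.06, adjusted p = 0.991). High values stood in irradiated libraries 1 and 4 and lisinopril libraries 1, 4 and 5. The summed erythroid list ran from 812 to 4254 CPM without the drug and from 704 to 3518 CPM with it. Leukocyte miRNAs summed to between 1727 and 2052 CPM without the drug and between 1382 and 1860 CPM with it, 0 of 11 passed in either fit, and no miRNA of either blood list was at 0 throughout. Irradiated library 4 had the lowest leukocyte sum of its group, but miR-142-5p, made in blood cells of all lineages, was at 293 CPM in it against 119, 82.1 and 105 CPM in irradiated libraries 1 to 3. With the drug miR-142-5p was at 114, 155, 163, 189 and 328 CPM (0.88, adjusted p = 0.0685, without library 4). The leukocyte list did not follow it. With all libraries 8 of its 11 miRNAs had a negative log2 fold change (median -0.10), and without library 4 6 of 11 did (median -0.01). The endothelial list summed to 9345 to 14608 CPM without the drug, with library 4 the highest, and to 10684 to 16190 CPM with it. The smooth muscle and fibroblast list summed to 33417 to 38866 CPM and to 28254 to 56321 CPM, and 3 of its 10 miRNAs rose without library 4 (4.66% of all miRNAs did), with 4 of the 10 negative. The muscle, liver and neural list summed to 2357 to 2767 CPM without the drug and to 1995 to 2491 CPM with it. The part of these cell markers in the differences without library 4 was not tested.

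The remaining families stayed near the middle of all miRNAs with all libraries. Medians were 0.01 for the miR-30 family (11 tested), -0.07 for the miR-200 family (8), 0.11 for let-7 (18), 0.05 for miR-17-92 and its paralogues (18), -0.02 for miR-181 (9), 0.12 for NF-kB-linked (10), -0.08 for hypoxia and injury (8) and 0.11 for other p53-linked miRNAs (15). Under library totals the medians of let-7 (-0.07), miR-17-92 (-0.13), miR-30 (-0.19), NF-kB-linked (-0.07) and other p53-linked miRNAs (-0.07) turned negative, each by about the shift of all miRNAs. The miR-30 median was also below 0 under RLE size factors (-0.01) and totals without miR-10a-5p (-0.08), and the miR-17-92 median under the latter (-0.03). The miR-15/16 family stood at 0.23 (12), with 9 positive, and at 0.05 under library totals. miR-16-5p was at 5626 to 8520 CPM without the drug and 6462 to 9686 CPM with it (0.23, adjusted p = 0.435), and miR-195-5p gave 0.24 (adjusted p = 0.417). Both have the seed of miR-322-5p, and neither passed without library 4 (adjusted p = 0.204 and 0.16).

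Within a hairpin, the ratio of the 5p to the 3p arm needs no scaling between libraries. The ratios were not adjusted for GC content, in which the arms can differ. limma called 0 of 120 hairpins higher (0%) and 0 lower (0%) with all libraries, with 15 at an unadjusted p under 0.05. Without irradiated library 4 it called 0 of 123 higher (0%) and 1 lower (0.813%), miR-30d. The GC difference between the arms of miR-30d was not known. The log2 ratio of miR-30d-5p to miR-30d-3p was 7.12, 8.0, 7.52 and 6.55 in irradiated libraries and 6.37, 6.50, 6.37, 6.40 and 6.25 with lisinopril, against 6.99 to 7.22 in controls. All 5 treated kidneys were below all untreated and control kidneys, and library 4 was the closest to them. The difference was -1.17 (SE 0.2004, limma adjusted p = 0.00618) without library 4 and -0.92 (SE 0.236, adjusted p = 0.178) with it. The 3p arm was at 122, 93.6, 122 and 176 CPM without the drug and 172, 199, 216, 210 and 217 CPM with it (edgeR: log2 fold change 0.66, adjusted p = 0.0931, and 0.83, adjusted p = 0.0138, without library 4). The 5p arm had -0.24 (adjusted p = 0.386).

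Summed over shared seeds, edgeR called 0 of 315 seed families higher (0%) and 0 lower (0%), with 52 at an unadjusted p under 0.05. Without irradiated library 4, 16 of 323 rose (4.95%) and 21 fell (6.5%). Of the 37 families with more than 1 member, 1 was among them, that of miR-27a-3p and miR-27b-3p (seed UCACAGU), which rose by 0.44 (adjusted p = 0.0358). With library 4 kept, the level of this family was 23241 ± 4150 CPM (SD, n = 4) without and 29591 ± 3973 CPM (SD, n = 5) with the drug. Its member miR-27b-3p was also called singly without library 4. After adjustment for GC content in that fit, miR-27b-3p did not pass (log2 fold change 0.49, edgeR adjusted p = 0.0536). The family of miR-322-5p (seed AGCAGCA, 5 members) was at 9331 ± 1311 and 11046 ± 1294 CPM, a log2 fold change of 0.24 with a 95% interval from -0.02 to 0.51 (adjusted p = 0.339). Most of its counts were those of miR-16-5p, whose own values are given above.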

How the data were processed

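The labels give 3 groups of separate rats with no batch or pairing. Replicate numbers only follow accession order. Each library came from a separate rat, so p-values measure the spread between these rats together with that between their libraries. The authors deposited 1 table of whole numbers for each feature and library, which were taken here to be raw counts of reads. Per the submitters' processing notes, Trim Galore 0.2.5, Bowtie 1.1.1 and rn4 were used. The counting method and its use of strand are not given in the sources used here, so features on opposite strands of a locus are uncertain.

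Rat mature miRNAs were filtered (filterByExpr) and TMM-scaled, and edgeR fitted group means over all 13 libraries (version 4.0.16, R 4.3.3, biological coefficient of variation 0.247), with Benjamini-Hochberg adjustment and a threshold of 0.05. Arm ratios (2 added to each count) used limma 3.58.1, with DESeq2 1.42.0 as an alternative and scipy 1.17.1 for permutations. The GC adjustment took a lowess (span 0.5) per library as offsets. Members, lists and library 4 were chosen with earlier results of these data known. Named were miRNAs of at least 10 CPM with the smallest p or, without library 4, the largest change (8 per direction), the 4 most abundant, miR-34a-5p and 2 of each of 22 lists by p. Further members of the clusters and lists, and miR-126a-3p, miR-142-5p, miR-451-5p and the like, were named after their values were seen.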

Additional observations from a re-analysis of the deposited data

Results flagged for a closer look

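Single kidneys stood far from the rest of their group for 11 of the 108 group values checked (10.2%). For unselected, independent values chance would flag about 1 in 20. The miRNAs checked were named partly by their p-values and share the same libraries, so these rates cannot be compared. Lisinopril library 1 accounts for 6 of them. There miR-126a-5p stood at 6998 CPM (others 10457 to 11709). In the same library miR-149-5p was at 66.7 CPM (others 21.9 to 28.7), miR-183-3p at 4.25 CPM (others 2.52 to 2.61) and miR-324-3p at 46.9 CPM (others 34.5 to 38.1). It also held miR-423-3p at 667 CPM (others 323 to 421) and miR-494-3p at 2.94 CPM (others 0.724 to 1.26). Each of the 6 lay on the side of irradiated libraries 1 to 3, and the closest library to lisinopril 1 was irradiated 1.

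Irradiated library 4 held miR-141-3p at 767 CPM (others of its group 293 to 320). In irradiated library 2, miR-181a-2-3p was at 76.2 CPM (others 42.6 to 47.4) and miR-34c-5p at 240 CPM (others 311 to 323). In lisinopril library 3, miR-222-3p was at 151 CPM (others 216 to 232), and in lisinopril library 5, miR-9a-5p was at 483 CPM (others 348 to 368).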

How the results depend on the processing

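With all libraries, 0 miRNAs were called higher and 2 lower under RLE size factors, library totals, totals without the most abundant miRNA, a mean of at least 10 CPM, limma-voom and the table of miRNAs with a sequence. DESeq2 gave 4 and 7, limma-voom with quality weights 16 and 17, and GC adjustment 2 and 2. Leaving out single libraries gave 0 to 20 higher and 0 to 27 lower, the upper ends without irradiated replicate 4. Without that library, totals gave 8 and 45, GC adjustment 7 and 6, and leaving out a further library 1 to 31 and 0 to 47. Arm ratios called lower ranged from 0 to 1, and seed families from 0 to 16 higher and 0 to 21 lower on leaving out libraries, with 2 lower under RLE. The log2 fold change of miR-34a-5p turned to -0.15 under library totals, -0.045 under totals without the most abundant miRNA and -0.00268 with a mean of at least 10 CPM, and ran from -0.0507 to 0.13 on leaving out libraries. That of miR-144-3p ran from -0.24 to 1.11 on leaving out libraries, and miR-29b-3p turned to -0.0287 under GC adjustment. The cause was not tested. For single named miRNAs, 1010 other values kept direction and side of the threshold and 81 passed where the all-library fit did not. GC adjustment and the table of miRNAs with a sequence were chosen after seeing the data. No paired analysis was possible because replicate numbers only follow accession order.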

Other observations

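A few low or uneven miRNAs separated the groups or stood apart without a call, and were picked after their values were seen. miR-3473 was at 15.0, 14.6, 14.9 and 10.8 CPM in irradiated libraries 1 to 4 and at 8.83, 5.12, 5.89, 9.02 and 9.04 CPM with lisinopril, without overlap, while control library 2, which shares the estimate of spread, held 299 CPM against 13.3 to 20.1 CPM in the other controls (log2 fold change -0.87, edgeR adjusted p = 0.556). miR-293-5p was at 0.248 to 1.31 CPM without the drug and 1.47 to 1.86 CPM with it (1.12, edgeR adjusted p = 0.165). miR-770-5p had the most negative log2 fold change of all tested miRNAs, -2.77 (SE 1.63, edgeR adjusted p = 0.415), with 7.66, 0.496, 2.93 and 0.674 CPM without the drug, 0.097 to 1.47 CPM with it and 244 CPM in control library 2.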
